A study of Mus musculus with 6 samples.

Results

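The histone gene family was examined in single-cell RNA sequencing of sorted mouse bone marrow. Its members are every feature whose symbol begins with H1f, H2ac, H2bc, H3c, H4c, H3f, H2az or Hist followed by a digit, which gave 73 of 31253 features. They comprise 17 H2A, 17 H2B, 12 H3, 12 H4 and 10 H1 genes, 4 genes of the replacement variants H3.3 and H2A.Z (H3f3a, H3f3b, H2az1, H2az2), and H3f3aos, which is an antisense RNA of the H3f3a locus and not a histone. Bone marrow was taken from 3 wild-type (WT) and 3 Txnip-KO samples, flushed from the bone, enriched and sorted by flow cytometry. Txnip encodes thioredoxin-interacting protein, a binding partner of thioredoxin. The strain, age, sex and allele of the mice, the sorting gate, and whether each sample is a separate animal do not appear in the sources used here. The p-values therefore measure the spread between these samples, which may be technical.

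Histones package DNA. Octamers of H2A, H2B, H3 and H4 form the nucleosome core, and the linker histone H1 binds where DNA enters and leaves it. Most core and H1 genes are replication-dependent: they are transcribed in S phase from clusters, and their mRNAs end in a stem-loop bound by SLBP instead of a poly(A) tail. H3.3, H2A.Z and the H1 genes H1f0 and H1f10 are made outside S phase from polyadenylated mRNAs. The libraries were primed on poly(A) tails, so a stem-loop histone gene is counted here only through molecules that carry a poly(A) stretch, and its level is not its total mRNA.

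The stem-loop is shown for 8 members whose levels are described in what follows. The sites were read 5′ to 3′ from GENCODE M21 transcripts as the DNA letters of the RNA strand, and capitals mark the stem-loop with its pairing arms and loop.
Hist1h2ap: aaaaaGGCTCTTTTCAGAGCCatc
H2ac6: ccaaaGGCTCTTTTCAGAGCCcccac
H2ac18: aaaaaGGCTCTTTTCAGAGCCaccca
H2ac20: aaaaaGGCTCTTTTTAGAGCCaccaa
H2ac4: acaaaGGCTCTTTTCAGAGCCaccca
H3c3: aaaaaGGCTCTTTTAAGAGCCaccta
H1f4: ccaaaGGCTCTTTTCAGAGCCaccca
H4c4: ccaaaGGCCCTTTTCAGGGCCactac
The arms are the same in 7 of these sites, and H4c4 differs in its arms. The loop of H2ac20 and that of H3c3 each differ from the others. The consensus of the histone mRNA stem-loop was searched on the transcript strand. Its loop was left free, and its inner arm bases could be any that pair with each other. It was found within 100 bases after the stop codon in 43 members, against 53 of 21699 protein-coding genes (0.244%), which include those 43. Annotated sequence after the stop codon existed for 59 members, all 43 among them. In a member without such sequence the stem-loop could not be found by this search. A poly(A) signal (AATAAA or ATTAAA) within 50 bases of an annotated transcript end was present in 21 members, of which 11 also had the stem-loop. The annotated transcript of H2ac6 runs 2010 bases past its stem-loop, that of H1f4 1153 bases and that of H4c4 770 bases, whereas that of Hist1h2ap ends 3 bases after it and that of H2ac4 11 bases after it.

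Of the members, 54 lie on chromosome 13 and 11 on chromosome 3, in GRCm38 coordinates. Hist1h2ap is at chr13:21833026-21833507, H1f5 at chr13:21779883-21780625, H2ac6 at chr13:23681467-23683948 and H3c3 at chr13:23744973-23745602, all on the minus strand. H2ac20 is at chr3:96220361-96220880 on the minus strand and H2ac18 at chr3:96245497-96246082 on the plus strand. On chromosome 3, 10 members lie between 287825 and 337649 bases from Txnip itself. In 15 members the last 150 bases of the transcript were at least 95% identical to those of another member, including H2ac18 with H2ac19. The division of reads between such members is uncertain and was not tested. Kept cells held 3099 UMIs of H2ac18 and 2 of H2ac19. The coding sequences of Hist1h2ap and Hist1h2ao are 100% identical. Both carry the same stem-loop, starting 39 bases after the stop codon. Their annotated transcripts stop at different points, 3 bases after the stem-loop in Hist1h2ap and 31 bases in Hist1h2ao. Whether reads could be divided between these 2 genes was not tested, so the count of Hist1h2ap is uncertain. H1f4 overlaps H2bc6 on the same strand, and H3f3a overlaps H3f3aos on the opposite strand.

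Promoters are shown for the members with the largest differences between genotypes in dividing cells among those with a mean level of at least 20 CPM (UMIs of the gene scaled to 1000000 UMIs of the sample), 2 higher (Hist1h2ap, H2ac6) and 2 lower (H1f5, H3c3) in Txnip-KO. Hist1h2ap was matched by an older symbol and its position to the RefSeq entry H2ac24. Each promoter runs 5′ to 3′ from 250 bases before to 50 bases after the gene's start in RefSeq on GRCm38.p6. Capitals mark matches on either strand to the CCAAT box and to the TATA box, searched as TATAAA. They also mark the octamer of H2B promoters, searched as ATTTGCAT, an E2F-like element, searched as TTTCGCG, and the H1 box, searched as AAACACA. Motif matches that overlap another motif were not separated.
Hist1h2ap (chr13:21833426-21833725, minus strand): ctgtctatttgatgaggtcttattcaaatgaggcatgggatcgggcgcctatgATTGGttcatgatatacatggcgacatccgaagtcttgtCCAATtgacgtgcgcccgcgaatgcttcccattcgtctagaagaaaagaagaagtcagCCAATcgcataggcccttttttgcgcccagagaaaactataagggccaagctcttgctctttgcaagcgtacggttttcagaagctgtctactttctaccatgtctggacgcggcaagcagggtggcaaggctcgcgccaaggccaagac
H2ac6 (chr13:23683910-23684209, minus strand): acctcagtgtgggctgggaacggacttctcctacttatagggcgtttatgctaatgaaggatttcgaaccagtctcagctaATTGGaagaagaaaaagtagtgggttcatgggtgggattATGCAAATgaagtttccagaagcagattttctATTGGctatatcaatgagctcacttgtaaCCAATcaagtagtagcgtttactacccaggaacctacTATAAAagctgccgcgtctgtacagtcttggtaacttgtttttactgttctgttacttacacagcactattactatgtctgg
H1f5 (chr13:21780576-21780875, minus strand): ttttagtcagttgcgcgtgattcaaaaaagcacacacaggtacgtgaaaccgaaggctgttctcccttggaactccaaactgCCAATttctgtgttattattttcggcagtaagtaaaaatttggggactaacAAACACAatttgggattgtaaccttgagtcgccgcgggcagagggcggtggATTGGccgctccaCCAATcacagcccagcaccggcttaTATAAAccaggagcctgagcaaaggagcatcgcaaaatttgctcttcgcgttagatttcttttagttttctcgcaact
H3c3 (chr13:23745472-23745771, minus strand): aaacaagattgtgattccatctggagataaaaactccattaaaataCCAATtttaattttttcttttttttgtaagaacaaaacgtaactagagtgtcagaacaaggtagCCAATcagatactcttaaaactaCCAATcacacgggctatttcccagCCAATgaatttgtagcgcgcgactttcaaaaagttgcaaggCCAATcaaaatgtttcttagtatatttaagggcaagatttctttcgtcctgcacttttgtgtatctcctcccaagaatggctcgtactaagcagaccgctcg
CCAAT was matched 3 times in the promoters of Hist1h2ap, H2ac6 and H1f5 and 5 times in that of H3c3. TATAAA was matched in H2ac6 and H1f5, the octamer in H2ac6, and the H1 box in H1f5. Of the 67 members with a promoter in the table, 83.6% had a CCAAT match, against 37.9% of 27025 promoters of the same length. TATAAA was matched in 52.2% of members and 14.2% of all promoters, the octamer in 19.4% and 1.75%, TTTCGCG in 19.4% and 0.844%, and AAACACA in 14.9% and 7.14%.

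After filtering, 41513 cells were kept, 6023 to 7827 per sample, with 54150321 to 71355508 UMIs per sample. CPM were computed within a sample, cell type and state, with no division by length because a UMI counts a molecule by its 3′ end. Txnip, the deleted gene, was at 341 ± 70.7 CPM in non-dividing WT cells (SD, n = 3) and 8.05 ± 6.51 in Txnip-KO cells, of which Txnip-KO sample 3 had 0.561. Some Txnip-KO samples stood apart in other cell types. Summed markers of neutrophils (5 genes) reached 8700 CPM in non-dividing cells of Txnip-KO sample 1 and 2174 in sample 3, against 546 to 801 in the other samples. Plasma cell markers (4 genes) reached 1236 in Txnip-KO sample 2, against 65.1 to 79.1 elsewhere. Of 41352 barcode sequences in the kept cells, 160 occurred in more than 1 library. In sums over all kept cells of a state, fewer cells of a type and less RNA per cell cannot be told apart. Cells of the gated types were counted and summed apart.

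Cells with at least 2 UMIs of Mki67 and Top2a together were called dividing and the rest non-dividing. The median depth was 14718 to 17248 UMIs in dividing cells and 6275 to 7536 in non-dividing cells. Dividing cells made up 26.0%, 25.6% and 21.9% of the 3 WT samples and 13.8%, 17.3% and 13.3% of the 3 Txnip-KO samples. The groups did not overlap, and the exact two-sided permutation test gave p = 0.1 (0.109 adjusted over 12 comparisons), the smallest that 3 against 3 samples allows. With every cell thinned to 1000 UMIs, which left out none, the shares were 4.30% to 5.57% in WT and 2.66% to 3.41% in Txnip-KO.

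Cell types were assigned by combinations of marker UMIs, which placed 26634 of 41513 cells in 1 of 14 types, 3248 in more than 1 and 11631 in none. In these gates 68 of 71 further markers were higher than in the other cells. The types are written as the marker gates they are: stem-like (HSC), lymphoid-primed (LMPP), B-lineage-like (B), granulocyte-monocyte progenitor-like (GMP), erythroid-like (Ery), megakaryocyte-like (Mk), basophil or mast-like (Baso), NK-like (NK), innate lymphoid-like (ILC), plasmacytoid dendritic-like (pDC) and monocyte-like (Mono). Types with at least 20 cells in every sample were tested, 5 in dividing and 11 in non-dividing cells.

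Most members with enough counts in non-dividing cells to be tested there were higher in dividing cells. Of 58 members that passed the filter on low counts in non-dividing cells alone, 54 rose and 2 fell between non-dividing and dividing cells of the same samples (edgeR quasi-likelihood test, Benjamini-Hochberg adjusted p under 0.05). Of the 14116 genes that passed in the same way, 72% were called, 32.8% higher and 39.2% lower. The median log2 difference was 1.97 over the 58 members and -0.05 over those genes. Another 7 members (H2ac10, H2ac12, H2ac13, H3c2, H3c8, H3c15 and H4c6) passed only through dividing cells, so they had to differ and are described by level alone. Among them H2ac10, an H2A gene, was at 0.197 CPM in non-dividing and 22.6 in dividing cells, and H3c2 at 0.182 and 17.6. The H3 gene H3c3 rose from 0.970 to 61.7 CPM, a log2 difference of 6.06 ± 0.09 (SE), the largest among the 58. The linker gene H1f5 rose from 26.9 to 519 CPM, by 4.26 ± 0.18 on the log2 scale. At the other end, H3f3b, a gene of H3.3, fell by 0.11 ± 0.03 on the log2 scale (adjusted p = 0.00926), and H3f3aos fell by 0.56 ± 0.09. H3f3a rose by 0.12 ± 0.02. H1f0, the linker histone of non-cycling cells, was at 55.4 and 57.3 CPM and did not pass the test (adjusted p = 0.0740). The genes of H2A.Z both rose: H2az1 from 913 to 1981 CPM and H2az2 from 225 to 437.

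**Figure D1:**
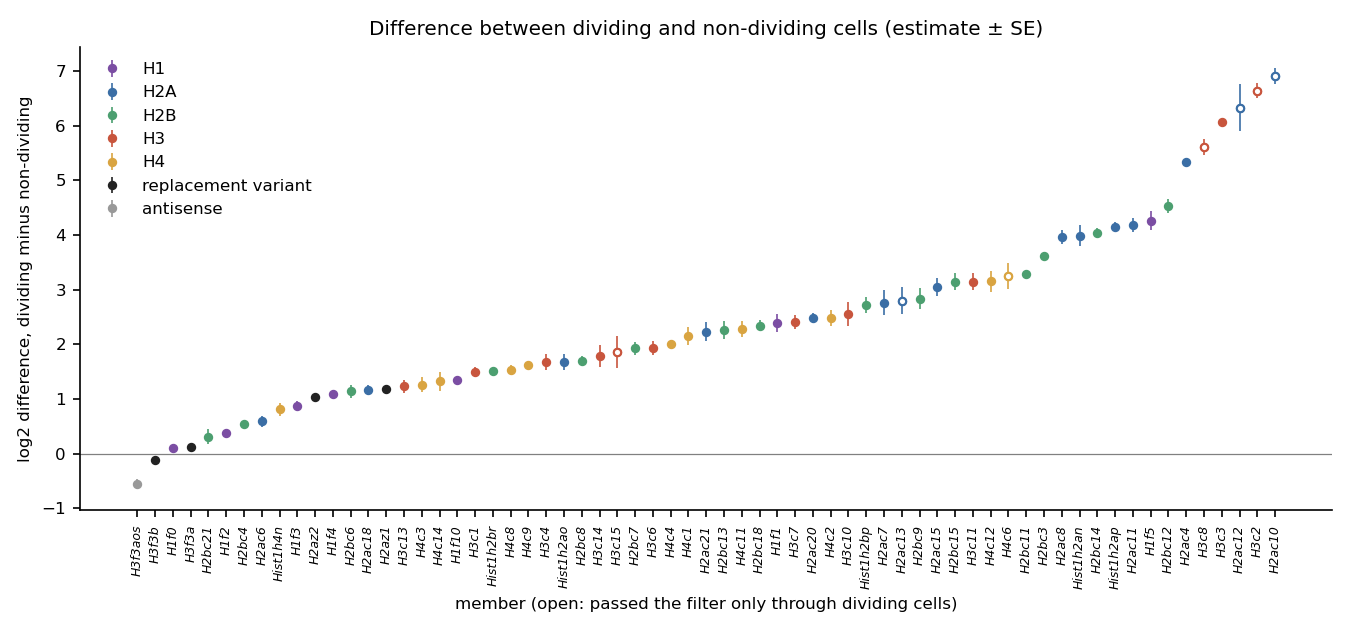
Log2 difference between dividing and non-dividing cells of the same 6 samples (vertical axis, estimate ± SE) for each of the 65 members in the fit (horizontal axis), coloured by histone family. Open points are the 7 that passed the filter only through dividing cells. The replacement variants H3f3a and H3f3b and the linker gene H1f0 lie near the low end, and H3c3, at 6.06, is the highest filled point.

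The size of this difference was read against the 3′ end of the annotated transcript. Over the same 58 members, the 26 with a stem-loop and no poly(A) signal had a median log2 difference of 2.20, the 10 with both had 1.71, and the 8 with a poly(A) signal and no stem-loop had 0.67. The 14 with neither had a median of 2.47. That group may hold members with no annotated sequence after the stop codon, in which the stem-loop could not be found. Among stem-loop members, the 18 whose transcript ends under 100 bases after the loop had a median of 2.74 and the 18 with longer ends 1.68. H2ac6, with a long annotated end, was at 23.7 CPM in non-dividing and 33.0 in dividing cells, while H2ac4, with a short end, was at 1.46 and 55.7. Single members varied within these groups: H4c4, also with a long annotated end, was at 37.7 and 144. These medians are a description and were not tested against each other.

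The same comparison was made within cell types. Counting again only genes that passed the filter in the non-dividing cells of the type, 33 of 33 members were called in stem-like cells (44% of all such genes), 28 of 33 in lymphoid-primed cells (38.6%), 24 of 28 in granulocyte-monocyte progenitor-like cells (33.4%), 22 of 27 in erythroid-like cells (32.3%) and 16 of 20 in megakaryocyte-like cells (16.1%). A further 22 to 31 members per type passed only through dividing cells. H1f0 was lower in dividing than in non-dividing lymphoid-primed cells (-0.38 ± 0.10) and granulocyte-monocyte progenitor-like cells (-0.58 ± 0.09). H2bc4 was lower in dividing granulocyte-monocyte progenitor-like (-0.46 ± 0.08) and megakaryocyte-like cells (-0.71 ± 0.16). H3f3a and H3f3b did not pass the test in 4 of the 5 types.

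Between genotypes, dividing Txnip-KO cells had less of most called histone genes and more of a few. Of 65 members tested, 9 were higher and 23 lower in Txnip-KO dividing cells, which is 49.2% called against 37.8% of 12807 genes (18.9% in each direction). The median log2 difference was -0.13 over these members and 0.02 over all genes. The called H4 genes were 6 lower and 1 higher of 11 tested, H2A genes 5 lower and 3 higher of 15, H3 genes 4 lower and 2 higher of 12, H2B genes 3 lower and 1 higher of 15, H1 genes 2 lower and 2 higher of 7, and replacement variants 3 lower of 4.

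Hist1h2ap, an H2A gene of the large chromosome 13 cluster, rose most among members averaging at least 20 CPM. It was at 54.1, 48.3 and 36.7 CPM in dividing cells of the 3 WT samples and at 137, 286 and 118 in those of the 3 Txnip-KO samples. All Txnip-KO samples were above all WT samples, and Txnip-KO sample 2 was the highest. The log2 difference was 1.87 ± 0.31 (SE, adjusted p = 0.00273). H2ac6, another H2A gene of that cluster, was at 17.7, 13.1 and 13.1 CPM in WT and at 47.6, 35.1 and 71.4 in Txnip-KO, with Txnip-KO sample 3 the highest. It rose by 1.71 ± 0.24 (adjusted p = 0.00159).

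Other H2A genes did not pass the test or went the opposite way in the same cells. H2ac8, the most abundant H2A gene there, was at 339 ± 27.0 CPM in WT and 332 ± 43.8 in Txnip-KO (SD). Its log2 difference was -0.13 ± 0.09 (adjusted p = 0.259), and that of Hist1h2an was -0.11 ± 0.16 (adjusted p = 0.631). H2ac20 was at 64.6, 58.2 and 47.5 CPM in WT and 39.2, 29.97 and 26.3 in Txnip-KO, which did not overlap, and fell by 0.95 ± 0.13 on the log2 scale. H2ac10 was at 29.2, 29.6 and 28.7 in WT and 19.6, 13.95 and 14.3 in Txnip-KO, and fell by 0.99 ± 0.10. H2ac4 was at 88.2, 60.2 and 61.9 in WT and 61.0, 30.7 and 32.5 in Txnip-KO. Its groups overlapped at 1 sample, and it fell by 0.88 ± 0.23 (adjusted p = 0.0156), a call lost without WT sample 1 (adjusted p = 0.0531) or Txnip-KO sample 2 (adjusted p = 0.0515).

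Of the H3 and H4 genes, H3c3 was at 96.6, 81.5 and 62.9 CPM in dividing WT cells and 52.8, 39.8 and 36.7 in Txnip-KO cells, and fell by 1.01 ± 0.15. H4c4, the most abundant H4 gene here, was at 204, 162 and 159 in WT and 135, 94.2 and 112 in Txnip-KO, and fell by 0.73 ± 0.12. Neither gene's groups overlapped. H3c4 was at 13.5, 11.3 and 11.95 in WT and 19.97, 15.97 and 29.6 in Txnip-KO, and rose by 0.73 ± 0.20 (adjusted p = 0.0192). Among H2B genes, H2bc4 fell by 0.44 ± 0.09, and H2bc3, H2bc6, H2bc11 and H2bc14 did not pass the test, with log2 differences from -0.11 to -0.03.

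The linker histones split. H1f5, the most abundant of them in dividing cells, was at 797, 665 and 599 CPM in WT and 448, 353 and 253 in Txnip-KO, with no overlap, and fell by 1.08 ± 0.17 (adjusted p = 0.00231). H1f4 was at 365, 297 and 260 in WT and 223, 211 and 174 in Txnip-KO, and fell by 0.70 ± 0.12. H1f10, a replication-independent H1, was at 106, 91.6 and 99.3 in WT and 140, 137 and 154 in Txnip-KO, and rose by 0.43 ± 0.09. H1f0 rose by 0.51 ± 0.11, from 45.4 ± 8.001 to 69.2 ± 3.41 CPM (SD, n = 3 each). H1f1, H1f2 and H1f3 did not pass the test, with log2 differences of -0.22, -0.11 and -0.04. The summed level of the 10 H1 genes was 1610, 1326 and 1207 CPM in dividing WT cells and 1141, 993 and 885 in Txnip-KO cells, which did not overlap.

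Of the replacement variants, H2az1, H2az2 and H3f3a fell in dividing cells by 0.31 ± 0.08, 0.38 ± 0.08 and 0.28 ± 0.08 on the log2 scale. The call of H2az1 was lost without WT sample 2 or WT sample 3 (adjusted p = 0.059 and 0.0577), as was that of H3f3a (0.0691 and 0.0862). H3f3b was at 1452, 1443 and 1358 CPM in WT and 1371, 1430 and 1372 in Txnip-KO, and did not pass the test (log2 difference -0.13 ± 0.06).

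**Figure D2:**
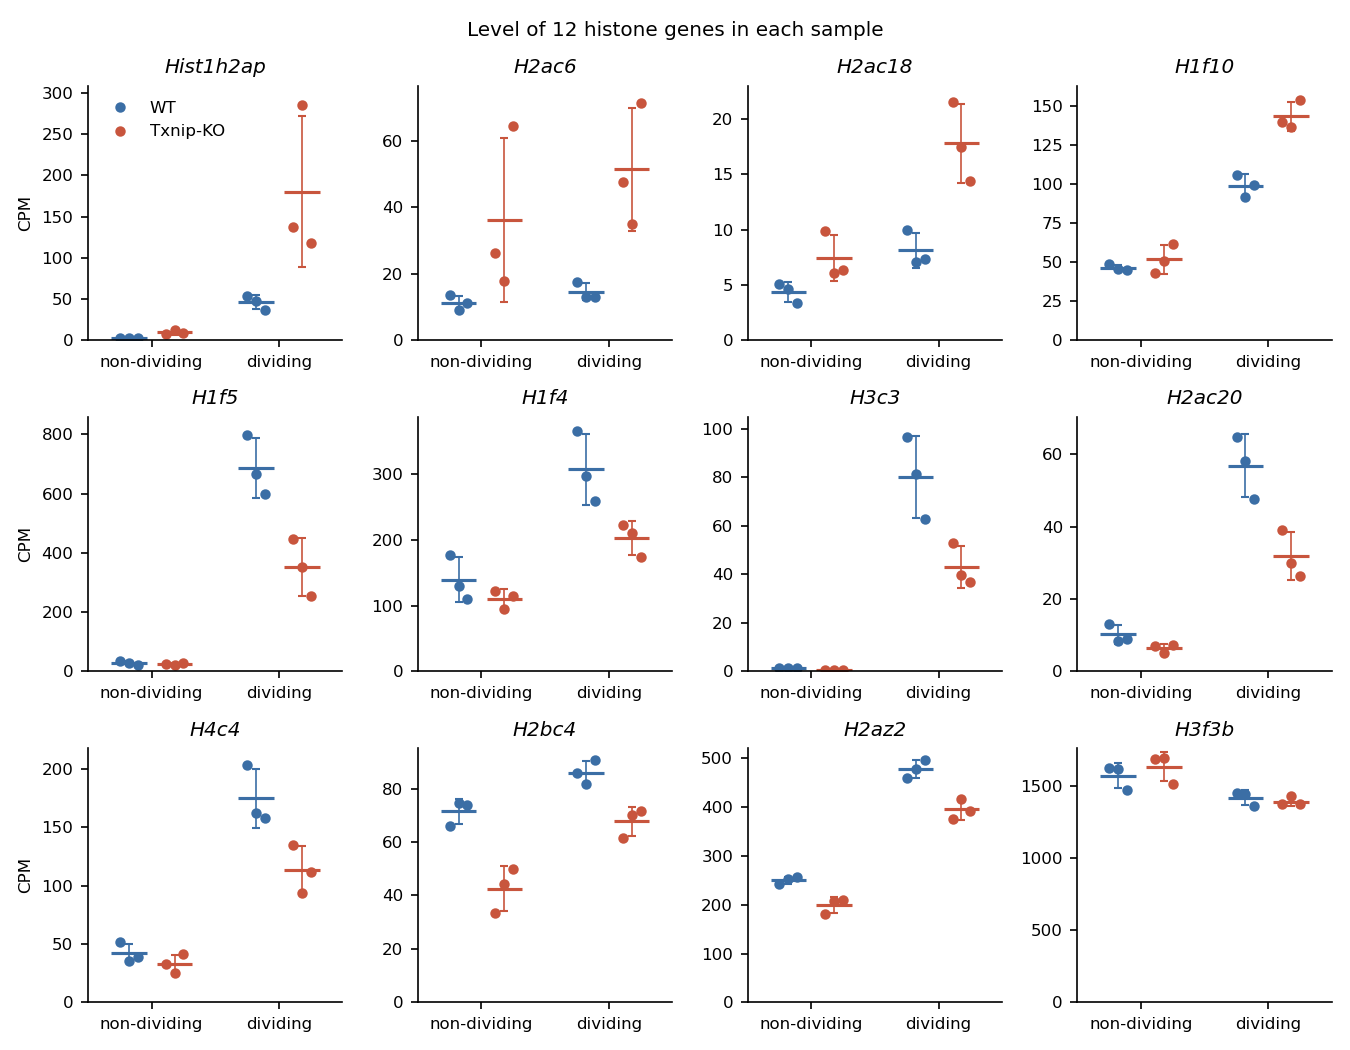
CPM (vertical axis, linear, from 0) of 12 histone genes in non-dividing and dividing kept cells, 1 point per sample, with the mean and SD of 3 WT and 3 Txnip-KO samples. Hist1h2ap and H2ac6 are higher and H1f5, H3c3 and H2ac20 lower in all Txnip-KO samples among dividing cells, while the H3f3b groups overlap.

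In dividing cells the cell composition differed between genotypes, and S phase genes were lower in Txnip-KO. When every gated type was represented by the same number of cells, 15 members were called in dividing cells, 5 higher and 10 lower, and when each cell was thinned to 1000 UMIs, 14 were called, 3 higher and 11 lower. Each of these kept the sign it had before. The share of all genes called under these settings is not given here, so the counts are not set against it. Of a list of 20 S phase genes (Mcm2, Pcna, Tyms and others), 18 fell in dividing cells, where 18.9% of all genes were lower, with a median log2 difference of -0.44. Their summed level was 2752 to 2809 CPM in WT and 2174 to 2266 in Txnip-KO. Of 20 genes of G2 and M, 9 fell (median -0.19), and their sums overlapped, at 1605 to 1774 and 1598 to 1653. The part of these shifts in the histone differences was not tested.

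Genes that supply, process and chaperone histones were read as lists, in dividing cells, where 37.8% of all genes were called and 18.9% were lower. Of 11 genes of histone mRNA processing and transcription, 4 fell and none rose, a share called near that of all genes: Slbp, the stem-loop binding protein (-0.30 ± 0.08), Lsm10, a subunit of the U7 particle (-0.31 ± 0.08), Ncbp1 of the cap-binding complex (-0.39 ± 0.08) and the transcription factor E2f1 (-0.38 ± 0.06). Npat and Casp8ap2, cofactors of histone gene transcription, were among the 7 that did not pass. Of 32 histone chaperone, exchange and import genes, 18 fell and 3 rose, against 18.9% of all genes in each direction. Asf1b, a chaperone of H3 and H4 in replicating cells, fell by 0.93 ± 0.08, Hat1, which acetylates new H4, by 0.57 ± 0.10, and Nasp, a chaperone that also binds H1, by 0.44 ± 0.08. Among 6 tested variants outside the family rule, 2 fell, near the share of all genes called: H2ax by 0.42 ± 0.10 and Macroh2a1 by 0.27 ± 0.08.

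Non-dividing cells showed fewer calls. Of 58 members tested, 6 were higher and 7 lower in Txnip-KO, 22.4% against 33.4% of 14174 genes (17.6% higher, 15.8% lower), so the share called was below the background. The count was 7 without WT sample 2 and 4 without WT sample 3. Hist1h2ap was at 3.38, 2.84 and 2.37 CPM in WT and 7.32, 13.03 and 9.34 in Txnip-KO, and rose by 1.72 ± 0.24 (adjusted p = 0.00264). H2ac6 was at 13.5, 9.27 and 11.2 in WT and 26.2, 17.97 and 64.3 in Txnip-KO, and rose by 1.60 ± 0.43 (adjusted p = 0.0224). That value rests in part on Txnip-KO sample 3: without it the log2 difference was 0.86 (adjusted p = 0.015), and without WT sample 2 or 3 the call was lost (adjusted p = 0.0747 and 0.0802).

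H2bc4, an H2B gene in whose annotated transcript neither the stem-loop motif nor the poly(A) signal was found, was at 65.9, 74.7 and 73.7 CPM in WT and 33.3, 44.4 and 49.98 in Txnip-KO, without overlap, and fell by 0.82 ± 0.15 (adjusted p = 0.00671). H2az2 was at 243, 252 and 257 in WT and 181, 207 and 209 in Txnip-KO, and fell by 0.41 ± 0.09, a call lost without WT sample 2 or 3 (adjusted p = 0.0508 and 0.062). H1f1 rose by 0.73 ± 0.21, from 10.97 ± 1.95 to 19.2 ± 5.54 CPM. Its call was lost without WT sample 2 or 3 (adjusted p = 0.0949 and 0.104), and without Txnip-KO sample 3 the difference was 0.45. H1f5 and H1f4 did not pass the test here, at -0.28 ± 0.14 and -0.42 ± 0.16.

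Whether the genotype difference itself differed between the states was tested with an interaction term. Of 65 members tested, 6 were called, against 2.12% of 14463 genes (1.58% lower), and in all 6 the Txnip-KO level relative to WT was lower in dividing than in non-dividing cells. These were H1f1 (-0.98 ± 0.14), H1f5 (-0.89 ± 0.18), H3c6 (-0.71 ± 0.15), H2bc6 (-0.63 ± 0.14), H2bc18 (-0.57 ± 0.12) and H1f3 (-0.50 ± 0.11). Sizes rested in part on Txnip-KO sample 3: without it the value was -0.64 for H1f1, -0.49 for H1f5, -0.35 for H3c6, -0.33 for H2bc6 and -0.21 for H1f3, of which H1f1 and H1f5 were still called (adjusted p = 0.00543 and 0.00865). H2bc6 was at -0.40 without WT sample 2. The set changed with the processing. Scaling by DESeq2 size factors gave 4 calls, 2 higher and 2 lower, and leaving out WT sample 2 left none by edgeR, with 19 members at an unadjusted p under 0.05. Leaving out WT sample 1 or 3 gave 2 and 1 calls, and leaving out Txnip-KO sample 2 gave 14.

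Among non-dividing types, the summed level of the H1 genes was highest in basophil or mast-like cells. The summed H1 level of non-dividing cells averaged 970 CPM there over the 6 samples, 609 in megakaryocyte-like cells and 202 in NK-like cells, with the other tested types from 206 to 430. H1f2 was at 153 to 305 CPM in basophil or mast-like cells, above the range of the next type, megakaryocyte-like cells (77.5 to 148). Lower in that order, neighbouring types overlapped. H1f10 was at 110 to 226 in megakaryocyte-like cells, above erythroid-like cells (37.6 to 104), and at 0.934 to 3.65 in NK-like cells. H2bc4 ranged from 48.7 to 200 in megakaryocyte-like and from 4.63 to 12.4 in NK-like cells, with every pair of neighbouring types overlapping. H2az1 was at 1463 to 2029 in NK-like and 263 to 445 in plasmacytoid dendritic-like cells.

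**Figure D3:**
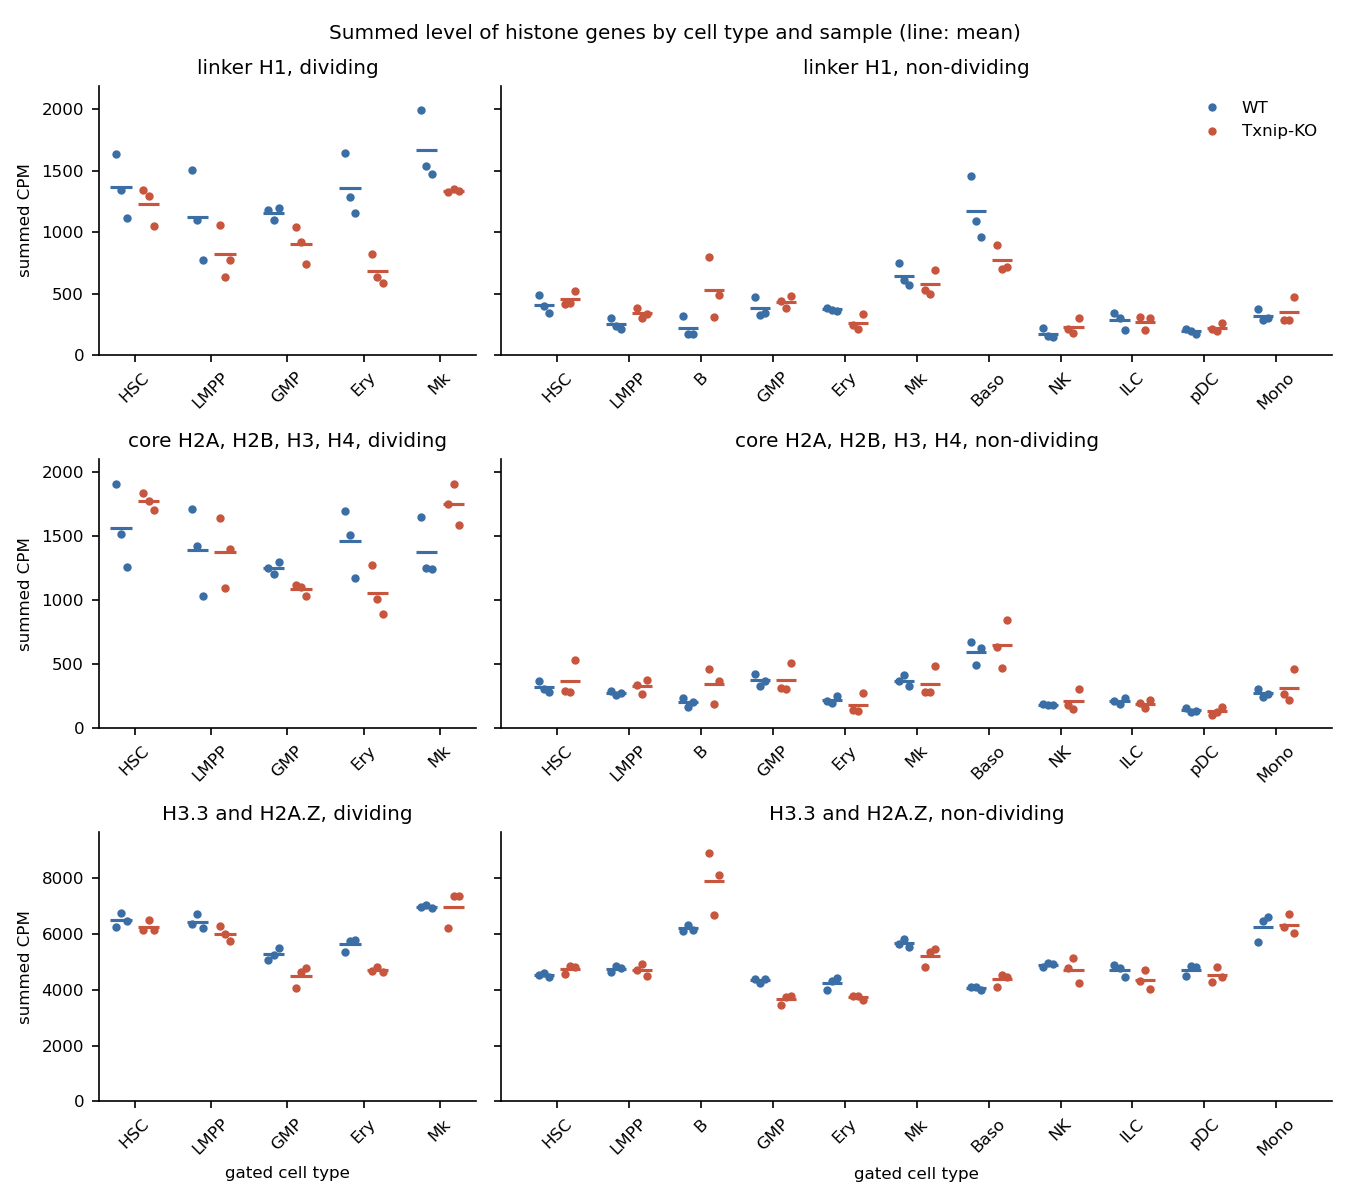
Summed CPM (vertical axis, linear, from 0) of the 10 H1 genes, the 58 core genes and the 4 replacement variants in each gated type, dividing cells at left and non-dividing cells at right, 1 point per sample with a line at the mean of 3. Among non-dividing cells H1 is highest in basophil or mast-like cells, at a mean of 970, and in dividing erythroid-like cells the H1 sums of all Txnip-KO samples are below those of all WT samples.

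In dividing cells of the 5 types, 101 of 256 member-by-type tests were called, 27 higher and 74 lower in Txnip-KO. In erythroid-like cells 2 were higher and 23 lower of 54 tested, while 11.8% of all genes tested there were called (6.23% higher, 5.59% lower). In granulocyte-monocyte progenitor-like cells 4 were higher and 24 lower of 56, against 26% of all genes (12.1% and 13.9%). Lymphoid-primed cells had 5 higher and 14 lower of 50, against 17.1% of all genes (7.82% and 9.29%). Stem-like cells had 6 higher and 8 lower of 50, against 16.4% (7.53% and 8.9%). In megakaryocyte-like cells the calls leaned the other way, 10 higher and 5 lower of 46, against 11.6% (5.57% and 6.07%). When each cell was thinned to 1000 UMIs, 14 of the tests were called, 7 in each direction. The share of all genes called after thinning is not given here.

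Hist1h2ap and H2ac18 rose in all 5 dividing types. Hist1h2ap ranged from 32.4 to 61.7 CPM in WT and from 131 to 440.99 in Txnip-KO megakaryocyte-like cells, where it rose by 2.44 ± 0.27 (adjusted p = 7.23e-07), its largest difference. The smallest was 1.49 ± 0.21 in granulocyte-monocyte progenitor-like cells, and 0.96 there without Txnip-KO sample 2. H2ac6 rose in 4 of the 5, by 1.53 to 2.08, and in erythroid-like cells was at 11.98, 9.83 and 7.62 in WT and 23.5, 8.75 and 17.7 in Txnip-KO, which overlapped (0.80 ± 0.28, adjusted p = 0.074).

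H1f5, H1f4, H4c4, H2ac20 and H3c2 fell in all 5 dividing types. The groups were not separate in every case. In granulocyte-monocyte progenitor-like cells those of H1f4 overlapped, at 276 ± 5.60 CPM in WT and 238 ± 45.9 in Txnip-KO (SD). H1f5 in erythroid-like cells was at 844, 641 and 604 CPM in WT and 386, 276 and 185 in Txnip-KO, and fell by 1.27 ± 0.18 on the log2 scale. Its differences were -0.68 in stem-like, -0.98 in lymphoid-primed, -1.08 in granulocyte-monocyte progenitor-like and -1.02 in megakaryocyte-like cells. H1f4 fell by 1.29 ± 0.13 in erythroid-like cells, the largest of its differences. H2ac20 fell by between 0.76 in megakaryocyte-like and 1.24 in erythroid-like cells, and its call in stem-like cells was lost without WT sample 1 (adjusted p = 0.0542). H3c3 fell in 4 types, most in erythroid-like cells, by 1.46 ± 0.26. Of the 20 S phase genes, 15 fell in dividing erythroid-like cells, 12 in lymphoid-primed and 10 in stem-like cells. In megakaryocyte-like cells 10 fell, and in granulocyte-monocyte progenitor-like cells 9 fell and 1 rose. The shares of all genes called in these types are given above with the member counts. The part of the S phase genes in the result was not tested. Summed red cell markers (3 genes) in dividing erythroid-like cells were 7.46 to 14.7 in WT and 390, 10.5 and 840 in Txnip-KO.

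H2bc4 differed in direction between dividing types. It fell in stem-like (-0.84 ± 0.20), lymphoid-primed (-0.41 ± 0.13) and granulocyte-monocyte progenitor-like cells (-0.66 ± 0.15). In megakaryocyte-like cells it was at 63.3, 68.2 and 42.5 CPM in WT and 95.3, 65.1 and 134 in Txnip-KO, which overlapped, and rose by 0.64 ± 0.19. H2ac8 and H2bc14 also had calls of opposite sign, higher in megakaryocyte-like cells and lower in granulocyte-monocyte progenitor-like (H2ac8) or erythroid-like cells (H2bc14).

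**Figure D4:**
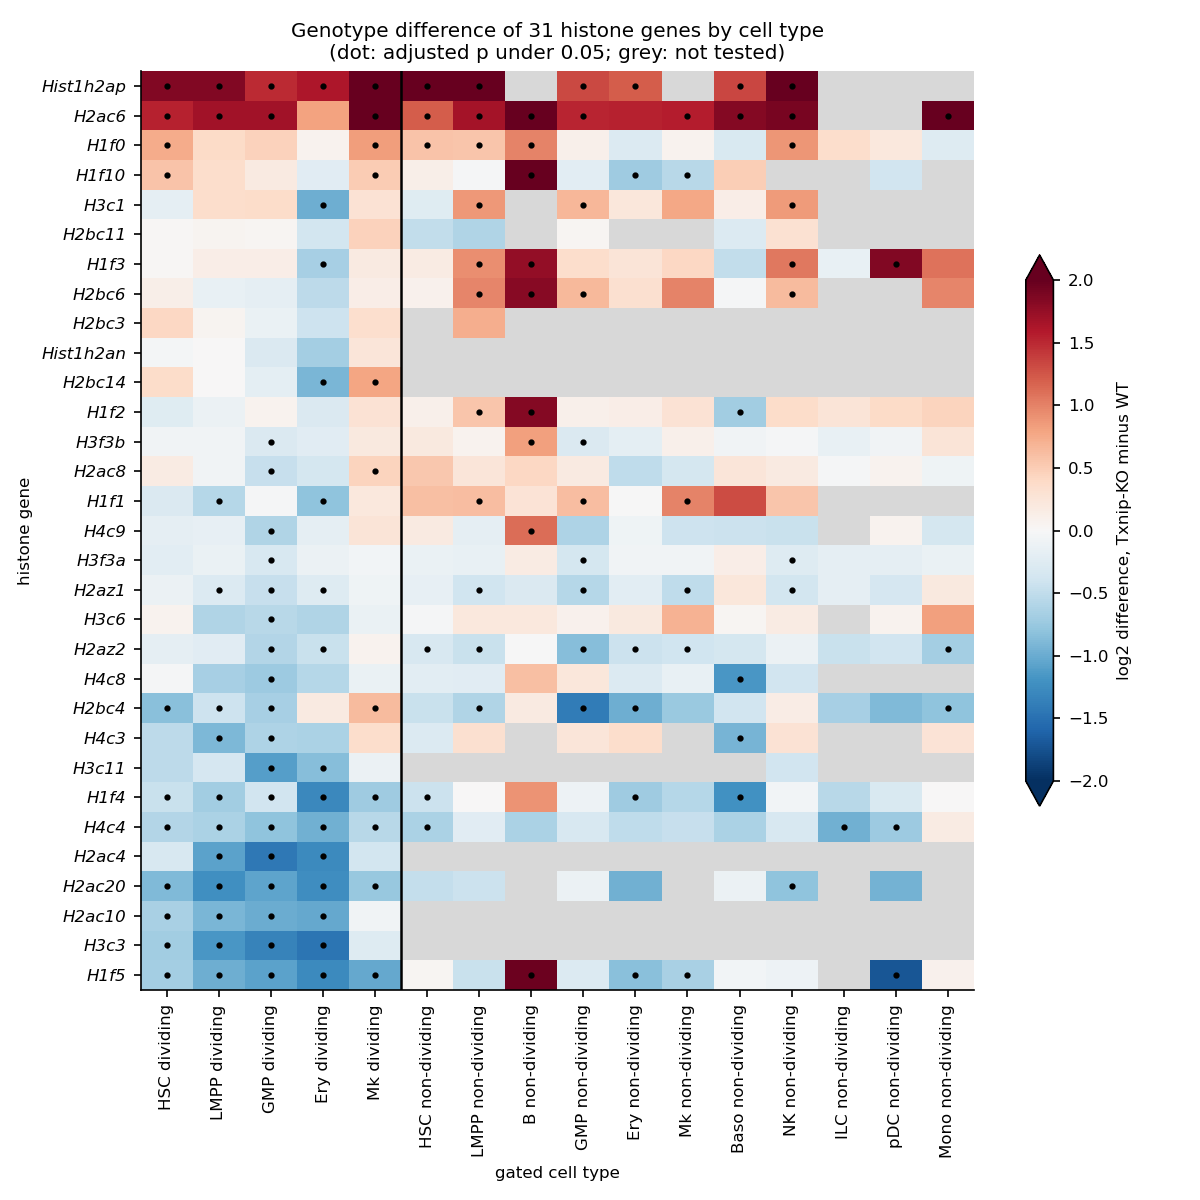
Log2 difference, Txnip-KO minus WT, of the 31 histone genes averaging at least 20 CPM in either state (rows) in each gated type and state (columns), on a colour scale from -2 to 2. Dots mark an adjusted p under 0.05, and grey marks pairs not tested because counts were low. Hist1h2ap and H2ac6 are higher in most columns, and H1f5, H1f4 and H4c4 are lower in all dividing columns.

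In non-dividing cells, 78 of 273 member-by-type tests were called, 44 higher and 34 lower. The counts were 12 of 33 in lymphoid-primed cells (32.3% of all genes tested there were called), 11 of 32 in NK-like (27%), 11 of 28 in granulocyte-monocyte progenitor-like (29.5%), 9 of 19 in B-lineage-like (17.7%), 8 of 33 in stem-like (27.8%), 7 of 34 in basophil or mast-like (16.7%), 6 of 27 in erythroid-like (16.5%), 6 of 20 in megakaryocyte-like (13.3%), 4 of 19 in monocyte-like (7.36%), 3 of 17 in plasmacytoid dendritic-like (23.6%) and 1 of 11 in innate lymphoid-like cells (4.84%). The total was 48 without WT sample 2 and 44 without WT sample 3.

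H2ac6 was called higher in 8 of the 9 types where it was tested. In basophil or mast-like cells it was at 45.5, 33.8 and 25.0 CPM in WT and 94.4, 66.9 and 236 in Txnip-KO, and rose by 1.83 ± 0.37, or 1.16 without Txnip-KO sample 3. Without that sample the difference was 0.33 in stem-like cells and 0.77 in monocyte-like cells, where the calls were lost, and 0.88 in lymphoid-primed and 0.72 in granulocyte-monocyte progenitor-like cells, where they were not. In stem-like cells the call was also lost without any 1 of the WT samples, and in monocyte-like cells without WT sample 2. Hist1h2ap was called higher in all 6 types where it was tested, by 1.22 to 2.10, and in stem-like cells was at 2.20, 2.80 and 2.51 in WT and 6.02, 15.5 and 13.2 in Txnip-KO.

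B-lineage-like cells had 9 higher calls and no lower one among 19 members tested, where 9.63% of all genes were higher. At an unadjusted p under 0.05, 10 members were higher and 1 lower. H1f2 was at 56.1, 27.0 and 27.7 CPM in WT and 168, 89.6 and 147 in Txnip-KO, and rose by 1.84 ± 0.29 (adjusted p = 0.00236). H1f5 rose by 1.96 ± 0.59, resting on Txnip-KO sample 1: without it the difference was 0.80 (adjusted p = 0.386), and leaving out any WT sample or Txnip-KO sample 3 also lost the call. H3f3b rose by 0.82 ± 0.16. This gate held 219, 220 and 252 cells in WT and 150, 90 and 175 in Txnip-KO, 12 of 15 tested S phase genes fell in it, and plasma cell markers summed to 2991 CPM in Txnip-KO sample 2 against 44.9 to 87.0 in the others. The part of these in the histone difference was not tested.

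In basophil or mast-like cells the linker genes H1f4 and H1f2 fell. H1f4 was at 654, 503 and 401 CPM in WT and 317, 206 and 178 in Txnip-KO, without overlap, and fell by 1.21 ± 0.20 (adjusted p = 0.00121), and H1f2 fell by 0.69 ± 0.15. H1f3 rose in lymphoid-primed (0.93 ± 0.15), B-lineage-like (1.76 ± 0.34), NK-like (1.06 ± 0.27) and plasmacytoid dendritic-like cells (1.86 ± 0.24). In the last it was at 8.31, 11.5 and 10.2 in WT and 29.1, 33.1 and 50.2 in Txnip-KO. In NK-like cells the call was lost without WT sample 3 or Txnip-KO sample 3, where the difference was 0.88 and 0.52. H2bc4 fell by 1.39 ± 0.17 in granulocyte-monocyte progenitor-like cells, from 129, 112 and 141 to 32.4, 56.0 and 72.5. In NK-like cells it was at 4.63 to 12.4 in all 6 samples (0.14 ± 0.32). H2az2 was called lower in 6 of 11 types, most in granulocyte-monocyte progenitor-like cells (-0.86 ± 0.10).

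Within types the interaction of state and genotype was called for few members. In lymphoid-primed cells 5 of 55 were called, against 0.525% of all genes: the linker genes H1f1 (-1.17 ± 0.19), H1f3 (-0.77 ± 0.16), H1f2 (-0.65 ± 0.15) and H1f4 (-0.65 ± 0.12), and H2bc6 (-1.07 ± 0.26). In megakaryocyte-like cells 5 of 44 were called, against 0.264%, and all had the opposite sign: H2bc4 (1.45 ± 0.22), H1f10 (1.08 ± 0.13), H1f0 (0.80 ± 0.17), H2az2 (0.49 ± 0.10) and H2az1 (0.43 ± 0.06). H1f10 there was at 226, 171 and 204 CPM in non-dividing WT and 110, 134 and 167 in non-dividing Txnip-KO cells, and at 202, 215 and 211 in dividing WT and 269, 296 and 328 in dividing Txnip-KO cells. In erythroid-like cells 3 of 58 were called (0.857%), namely H1f3 (-0.91 ± 0.22), H1f4 (-0.58 ± 0.13) and H2bc4 (1.07 ± 0.25). In granulocyte-monocyte progenitor-like cells 2 of 55 were called (0.164%), H1f5 (-0.81 ± 0.14) and H2bc4 (0.73 ± 0.14), and in stem-like cells 2 of 59 (0.216%), H1f1 (-0.84 ± 0.18) and H3f3b (-0.28 ± 0.04). These interactions within types were not refitted without single samples.

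The genotype difference among the non-dividing types was tested with 1 F test per gene. It was called in 21 of 42 members tested, against 31.4% of 11923 genes. The smallest adjusted p-values were those of H1f2 (5.15e-09), H3f3b (1.36e-08), H1f3 (1.81e-08) and H1f4 (2.89e-08). H2ac6 did not pass (adjusted p = 0.337).

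Of the 10 members near Txnip, 9 were tested in dividing cells, where 37.8% of all genes were called. H2ac18, H3c14 and H4c14 were higher in Txnip-KO and H2ac20, H2ac21 and H2bc18 lower. H2ac18 was at 9.93, 7.07 and 7.38 CPM in dividing WT cells and 21.5, 17.5 and 14.4 in Txnip-KO cells, and rose by 1.02 ± 0.16. Its neighbour H2ac20 fell, as given above. H3c13, H3c15 and H2bc21 did not pass the test. In non-dividing cells H2ac18 rose by 0.69 ± 0.20 and H2ac20 fell by 0.74 ± 0.19, the latter call lost without WT sample 1 or 3 (adjusted p = 0.0564 and 0.0511). H2ac18 shares its transcript end with H2ac19, so its count is uncertain.

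The family rule has no threshold on levels. Members H1f7, H2ac1, H2bc1 and Hist1h2bq had no UMI in any kept cell, and H1f6, H1f8, H2ac19 and Hist1h4m did not pass the filter on low counts in dividing cells.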

How the data were processed

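Single-cell RNA sequencing libraries (10x Genomics 3′) of sorted bone marrow from 3 WT and 3 Txnip-KO samples were analysed. The values are UMI counts per gene and cell barcode, which the authors deposited as filtered matrices. CASAVA 1.8, Cell Ranger 6.1.1 and Seurat 2.3.4 are named, per the submitters' processing notes, and no source used here gives the genome build. The members, gene lists and tests were chosen with earlier results of these data known.

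Cells with at least 500 genes, at least 1000 UMIs and at most 10% mitochondrial UMIs were kept (44399 of 48277 barcodes), and 2886 with the highest Scrublet scores (scanpy 1.11.5; 0.8% per 1000 barcodes of a library) were removed. Gate thresholds in UMIs were set after the values had been seen. UMIs were summed per sample, type and state. Sums were tested over all genes with edgeR 4.0.16 (R 4.3.3; filterByExpr, TMM, quasi-likelihood F test) and Benjamini-Hochberg adjustment, with a threshold of 0.05. The SE is the log2 difference divided by the square root of F. Dividing and non-dividing sums of a sample were fitted with the sample as a term. Individual description was drawn mainly from members with a mean of at least 20 CPM in either state (31 of 73). Added to these were the largest called differences within each type, pathway genes by list, and members near Txnip. Not every such member is given in every comparison. The scripts were tested on simulated data. Replicates differed by more than sampling noise, and Txnip-KO samples more than WT samples. The chi-square per gene between pairs of samples was 11.76 to 18.29 in WT and 61.49 to 100.2 in Txnip-KO. Same-numbered WT and Txnip-KO samples deviated together with correlations of 0.0211 to 0.164 (not all above 0.1), so they were not taken as pairs.

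Alternatives were other scalings, DESeq2 1.42.0, no filter on low counts, a replicate block, each sample left out, other cuts for dividing cells, no doublet removal, thinning to 1000 UMIs per cell, equal cell numbers per type, and a stricter cell filter. The library size without TMM was added after the data had been seen.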

Additional observations from a re-analysis of the deposited data

Results flagged for a closer look

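The genotype difference of 5 members with a mean of at least 20 CPM differed between dividing and non-dividing cells, by the interaction term of the edgeR fit. The values, dividing less non-dividing on the log2 scale, were -0.98 for H1f1, -0.89 for H1f5, -0.71 for H3c6, -0.63 for H2bc6 and -0.50 for H1f3. In non-dividing cells H1f1 was called higher in Txnip-KO and in dividing cells it was not called. Without WT sample 2 none of these 5 passed the test, and without Txnip-KO sample 3 the value was -0.64 for H1f1 and -0.49 for H1f5.

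The genotype difference also differed among the 11 non-dividing cell types in 18 such members, by an F test over the types (edgeR, adjusted p). The share of all genes called by this test is given above. The mean of at least 20 CPM was required in either state only. In non-dividing cells Hist1h2an averaged 1.72 CPM, H3c1 9.79 and H4c3 10.9. For linker genes the adjusted p was 5.15e-09 (H1f2), 1.81e-08 (H1f3), 2.89e-08 (H1f4), 1.36e-05 (H1f0), 8.58e-05 (H1f5) and 0.000518 (H1f10). H1f2 illustrates the range, from 1.84 in B-lineage-like to -0.69 in basophil or mast-like cells on the log2 scale. For the replacement variants it was 1.36e-08 (H3f3b), 7.74e-07 (H2az2), 1.72e-05 (H2az1) and 0.000611 (H3f3a). Among H2A and H2B genes it was 0.000153 (H2bc6), 0.00464 (Hist1h2an), 0.0259 (H2bc4) and 0.03 (H2ac8). Among H3 and H4 genes it was 0.00818 (H4c3), 0.0274 (H4c9), 0.0414 (H3c1) and 0.0467 (H4c4).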

How the results depend on the processing

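No called value of a single member reversed under any alternative that was run: of 2371 alternative values for 196 results, 2147 kept their side of the threshold, 174 fell below it and 50 rose above it. Calls in dividing cells numbered 32, from 25 to 34 with 1 sample left out, 14 after thinning and 15 with equal cells per type. In non-dividing cells the 13 calls became 4 to 18 with 1 sample left out and 4 after thinning. The 6 interaction calls became 0 to 14 with 1 sample left out, 14 without the filter on low counts and 3 with dividing cells at 4 or more UMIs. Member-by-type calls in non-dividing cells (78) became 44 to 83 with 1 sample left out, 46 by the DESeq2 Wald test, 120 without the filter and 20 after thinning. In dividing cells (101) they became 73 to 100 with 1 sample left out and 14 after thinning. Thinning leaves fewer UMIs to test, and the cause of the other changes was not tested. The dividing share of innate lymphoid-like cells, 0.534 percentage points higher in Txnip-KO, was -0.4901 with the cut at 4 UMIs and ranged from -0.7129 to 1.613 with 1 sample left out. A replicate block gave 17 calls in non-dividing and 34 in dividing cells, and 100 and 111 by type. Numbers are shared only by label, although each WT sample correlated best with its own number. Without TMM the median of all genes moved by 0.102 in dividing cells and by up to 0.17 in a type (granulocyte-monocyte progenitor-like, non-dividing). That scaling gave 10 higher and 21 lower calls in dividing cells. By type it gave 31 higher and 66 lower in dividing and 51 higher and 28 lower in non-dividing cells.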
